A study of Mus musculus with 9 samples.

Results

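The genes described here are 10 regulators of apoptosis, taken by symbol from the 31053 genes of the deposited matrix: the *Bcl2a1* copies *Bcl2a1a*, *Bcl2a1b*, and *Bcl2a1d*, then *Bcl2*, *Mcl1*, *Bcl2l1*, *Bcl2l11*, *Bax*, *Bbc3*, and *Fas*. They were read in single cells of femur bone marrow from 9 adult female mice aged 9 to 10 weeks, 3 of the inbred strain NZB (New Zealand Black), 3 of NZW (New Zealand White), and 3 of their hybrid NZBWF1. NZBWF1 is a model of systemic lupus erythematosus and was sampled at an age that precedes overt disease. The labels name no treatment and no engineered allele. Marrow was flushed from both femurs of a mouse, red blood cells were lysed, and each mouse gave 1 library with the 10x Genomics 3' v3.1 kit.

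Of 39051 barcodes that passed the limits on quality, 1458 were removed as likely doublets, and 33330 of the other 37593 cells (88.7%) were put into a class by marker genes, none of which is one of the 10 genes. The classes rest on RNA alone, so that each name stands for cells that resemble that type. UMIs (unique molecular identifiers, each counting 1 captured molecule) were then summed per class and mouse. A level below is in CPM, the UMIs of a gene when those of that class and mouse are scaled to 1000000, and the 9 mice held 7858010 to 17327216 UMIs each. Free RNA in the droplets, estimated from barcodes with fewer than 100 UMIs, came to at most 0.795% of the median UMIs of a cell. This estimate is no bound on RNA of other cells in a class. In mature B cells, 10 neutrophil markers summed to as much as 21807 CPM in NZW. Between libraries, 342 kept cells (0.876%) shared a barcode sequence. Tests compared mice, not cells, and p-values measure the spread between these mice. In such sums, fewer cells that express a gene and less RNA per cell cannot be told apart.

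Mitochondrial apoptosis is set by the BCL2 family. The proteins of *Bcl2*, *Mcl1*, *Bcl2l1* (BCL-XL), and *Bcl2a1* (A1) keep the effectors BAX and BAK from opening the outer mitochondrial membrane, while the BH3-only proteins BIM (*Bcl2l11*) and PUMA (*Bbc3*) bind and neutralize these guardians. *Fas* encodes a death receptor of the cell surface that activates caspases directly and is required to delete self-reactive lymphocytes. Cell types differ in the guardians on which their survival depends, and MCL1 turns over fast.

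The *Bcl2a1* copies arose by gene duplication and lie together on chromosome 9 (build mm10, GENCODE vM21). *Bcl2a1a* spans 88956900 to 88962419 on the forward strand, *Bcl2a1b* 89199209 to 89207827 on the forward strand, and *Bcl2a1d* 88723285 to 88731914 on the reverse strand. Their promoters are shown because they give a picture of how alike the copies are, which bears on every count below. The sequences are from RefSeq (GRCm38.p6), 5' to 3', and end at the last base before the annotated start. Capitals mark bases substituted relative to *Bcl2a1b*. The regions are chr9:88956670-88956899 (forward strand), chr9:89199023-89199208 (forward strand), and chr9:88731915-88732100 (reverse strand) in the order printed.
Bcl2a1a: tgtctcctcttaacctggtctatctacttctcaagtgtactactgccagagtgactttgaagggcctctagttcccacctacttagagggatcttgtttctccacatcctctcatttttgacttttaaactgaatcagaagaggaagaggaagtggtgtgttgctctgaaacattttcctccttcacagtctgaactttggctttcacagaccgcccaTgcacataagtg
Bcl2a1b: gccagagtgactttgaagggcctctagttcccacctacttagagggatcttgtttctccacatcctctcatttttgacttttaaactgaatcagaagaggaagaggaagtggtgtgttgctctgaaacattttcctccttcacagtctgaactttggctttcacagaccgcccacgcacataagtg
Bcl2a1d: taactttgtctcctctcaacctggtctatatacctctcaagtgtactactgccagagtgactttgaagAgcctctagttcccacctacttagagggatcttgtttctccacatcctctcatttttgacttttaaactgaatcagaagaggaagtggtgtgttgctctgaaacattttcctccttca

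*Bcl2a1a* differed from *Bcl2a1b* by 1 substitution over 186 aligned promoter bases (99.5% identical). *Bcl2a1d* differed by 1 substitution over 136 aligned bases (99.3% identical) and lacked 6 bases. None of the 3 promoters held the kappaB decamer of NF-kappaB, searched on both strands in 250 bases, which 7.25% of 32851 RefSeq promoters held. Among the other members, it stood in 1 of 3 promoters of *Bcl2l1* and 1 of 3 of *Bbc3*. The transcripts were as alike: *Bcl2a1a* and *Bcl2a1b* shared 98.2% of aligned bases, *Bcl2a1a* and *Bcl2a1d* 98.8%, and *Bcl2a1b* and *Bcl2a1d* 99.1%. Of the 411 windows of 90 bases in the last 500 bases, where 3' tags fall, 39.4% of those of *Bcl2a1b* and 39.7% of those of *Bcl2a1a* were found unchanged in another copy, against 65.2% for *Bcl2a1d*. A read from such a window cannot be given to 1 gene, so that the count of a single copy is uncertain. Strain comparisons of *Bcl2a1b* are also given with the 3 copies summed, whereas comparisons of stages were not refitted with the sum. The sum adds counts already given to 1 copy and does not recover reads that fit several. Over all classes *Bcl2a1b* gave 1036 of its UMIs, against 195 and 63 from the other copies. Calls from the sum are therefore no independent check. How sequence differences of NZB and NZW from the reference affected the counts of each copy was not tested.

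*Bcl2a1b* gave most UMIs of the copies. Over all classes it had 1036 UMIs, *Bcl2a1a* 195, and *Bcl2a1d* 63. Pooled over all classes, the *Bcl2a1b* share of the 3 was 89.3% ± 2.16 in NZB, 77.7% ± 5.67 in NZBWF1, and 68.4% ± 4.15 in NZW (mean ± SD, n = 3). No mouse of one strain overlapped another (p = 0.1 for each pair, exact permutation, two-sided, the smallest p that 3 against 3 mice allow). In monocytes the share was 78.4% in NZB, 53.3% in NZBWF1, and 40.8% in NZW, again without overlap (exact permutation, p = 0.1). In B cells it was 88.6% in NZB, above both other strains (exact permutation, p = 0.1), whereas NZBWF1 at 77.7% and NZW at 78.6% overlapped (exact permutation, p = 0.8). In neutrophils NZB at 96.5% was above NZW at 81.2% (exact permutation, p = 0.1), and NZBWF1 at 94.4% overlapped both (exact permutation, p = 0.4 and 0.2). The NZW shares there rest on 10, 15, and 16 UMIs of the 3 copies. All pairs of strains overlapped in T cells (exact permutation, p = 0.6 to 0.8). The pooled share also mixes classes in amounts that differ between strains. Reads that map to more than 1 copy are not counted, which leaves the share uncertain in the same way as the counts.

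**Figure D1:**
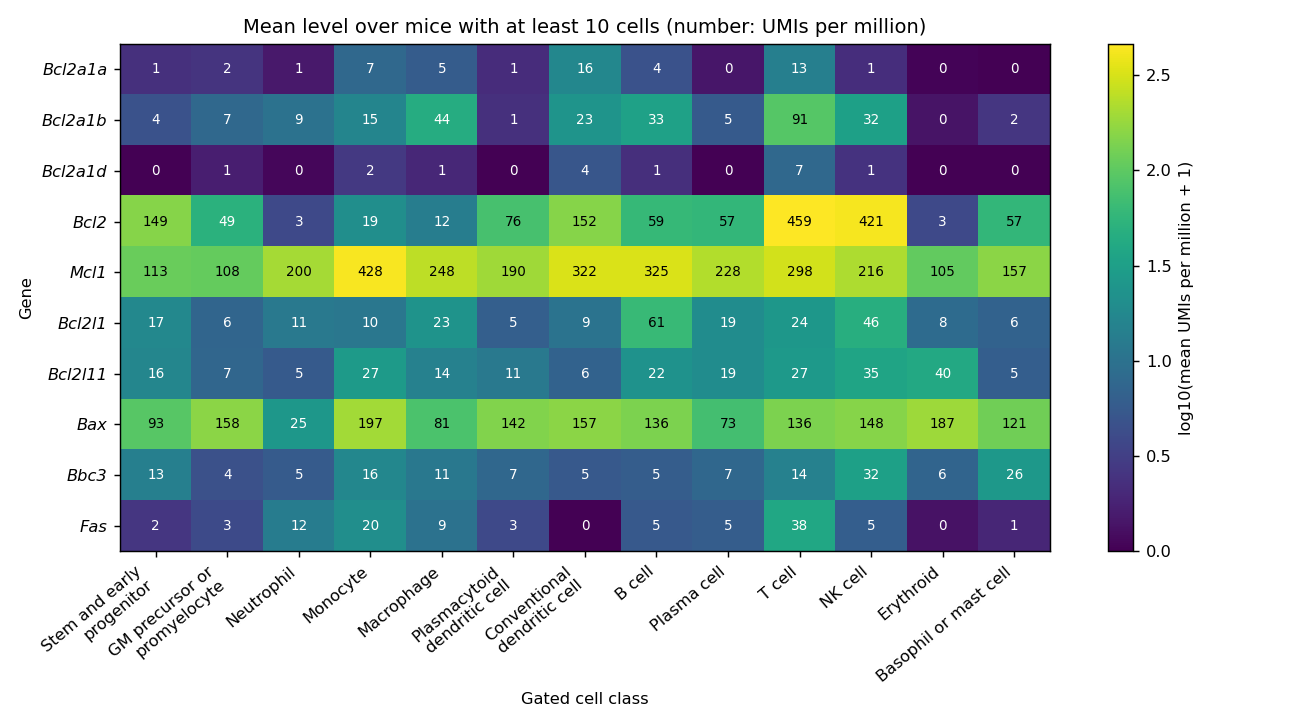
Mean level of each of the 10 genes (rows) in 13 cell classes (columns) over mice with at least 10 cells of the class, as CPM. The number in each cell is the mean, and the color is its log10 after adding 1. *Bcl2* stands out in T and NK cells, *Mcl1* in monocytes and B cells, and *Bcl2a1b* in T cells, while *Bax* is lowest in neutrophils.

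Across the 13 classes tested, which leave out the rarer megakaryocyte-like cells, *Bcl2a1b* was highest in T cells (91.1 CPM, mean of 9 mice), followed by macrophages (43.8), B cells (32.5), and NK cells (31.7). It fell to 15.3 in monocytes and 9.16 in neutrophils, and erythroid cells, which held 7 UMIs in all, were lowest at 0.367. The mean of B cells was carried by NZB (48.7 to 115, against 7.58 to 15.5 in the other mice), and B cells were above NK cells in 3 of 9 mice. *Bcl2*, by contrast, was highest in T cells (459 ± 108) and NK cells (421 ± 87.0), then conventional dendritic cells (152) and stem and early progenitor cells (149), and was lowest in neutrophils (2.83) and erythroid cells (2.88). *Mcl1* was found in every class, from 105 in erythroid cells to 428 ± 30.6 in monocytes. Among these 13 classes *Bcl2l1* led in B cells (60.6) and NK cells (46.1). *Bcl2l11* led in erythroid cells (39.9) and NK cells (34.9), *Bax* in monocytes (197) and erythroid cells (187), *Bbc3* in NK cells (31.5), and *Fas* in T cells (37.6) and monocytes (19.9).

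Of the 120 steps between neighboring classes in these orders (12 per gene), 4 exceeded the spread between mice after correction for the steps of that gene. *Bcl2* was higher in NK cells than in conventional dendritic cells in 8 of 8 mice (exact permutation over mice, p = 0.00781). It was also higher in stem and early progenitor cells than in plasmacytoid dendritic cells in 8 of 9 mice (exact permutation, p = 0.0117), and in granulocyte-monocyte precursors than in monocytes in 9 of 9 (exact permutation, p = 0.00391). *Bax* was higher in plasma cells than in neutrophils in 9 of 9 mice (exact permutation, p = 0.00391, the smallest that 9 mice allow). Each of these had an adjusted p of 0.0469 by the same exact permutation. For *Bcl2a1b*, none of the 12 steps passed, the step from T cells to macrophages included (exact permutation, adjusted p = 0.219, higher in 8 of 9 mice).

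Genes with the most similar order over the 13 classes were sought among 5735 genes with at least 50 CPM in 1 class. For *Bcl2a1b* these were *Zfp36* (Spearman's rho 0.84), *Tcrg-C2* (0.83), and *Arid5b* (0.83). *Bcl2* came with *H2-K1* (0.95), *Sept6* (0.93), and *Smad7* (0.93), and *Mcl1* with *Zfp36* (0.92), *Gm8369* (0.88), and *Gngt2* (0.84). *Bcl2l1* came with *Cd2* (0.82), *Pax5* (0.82), and *Vpreb3* (0.81). These values describe 13 classes that come from the same libraries.

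Differences between strains were next tested in each class with the edgeR quasi-likelihood method over all genes. Of 130 pairs of a gene and a class, 59 passed the filter on low counts: 13 for *Mcl1*, 12 for *Bax*, 10 for *Bcl2*, 6 for *Bcl2a1b*, 5 each for *Bcl2l11* and *Bcl2l1*, 3 each for *Bbc3* and *Fas*, 2 for *Bcl2a1a*, and 0 for *Bcl2a1d*. A pair can pass through the strain in which the gene is high, since the filter asks for the CPM that 10 UMIs make in the median library in at least 3 mice. Between the parents, 12 of the 59 tests were called, 10 of them higher in NZB and 2 higher in NZW, where 9.17% of tests over all genes were called (4.56% higher and 4.61% lower). The median log2 fold change of the 59 was 0.33, against -0.00 over all genes. NZBWF1 differed from NZB in 4 tests, each lower in NZBWF1 (3.52% called over all genes, 1.74% lower), and from NZW in 3, each higher in NZBWF1 (1.56% over all genes, 0.850% higher). Against the mean of the parents, 1 of the 59 was called, lower in NZBWF1 (0.544% over all genes, 0.152% lower), and 3 had an unadjusted p under 0.05. This comparison calls any departure from the midpoint of the parents, including a hybrid that resembles 1 parent. The comparisons share mice, so that their counts are not independent.

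**Figure D2:**
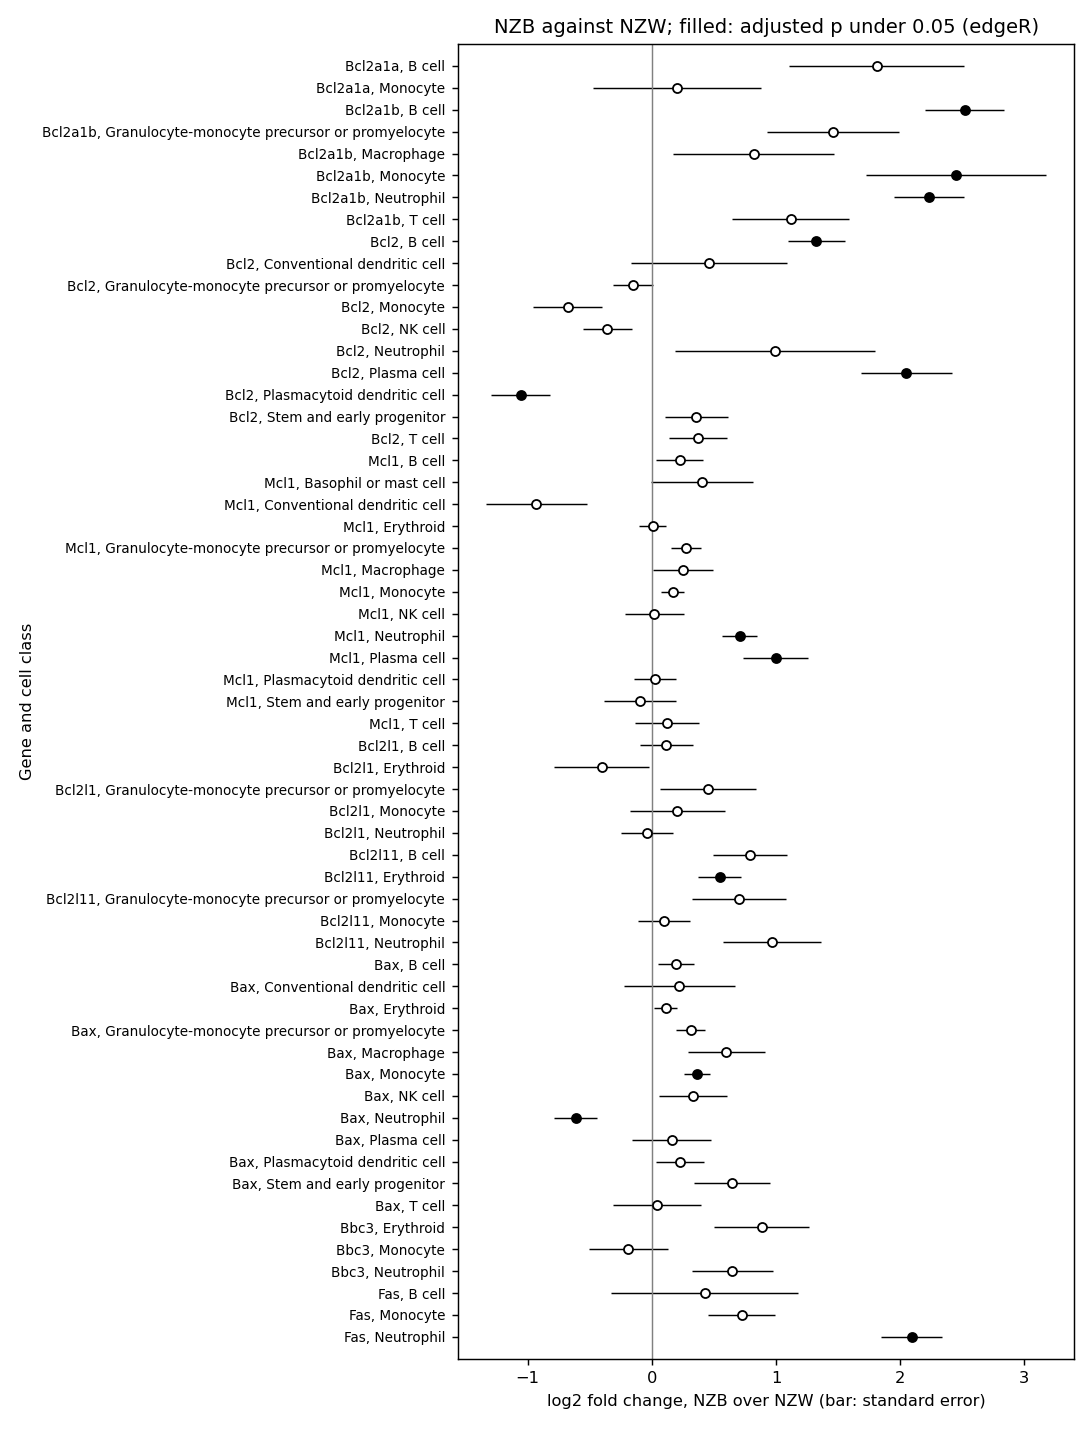
Log2 fold change of NZB over NZW (x axis) for each gene and class that could be tested (y axis), with the standard error as a bar. Filled points passed an adjusted p under 0.05 in edgeR. Of the 59 points 12 are filled, 10 of them to the right of 0, and *Bcl2a1b* lies to the right in all 6 of its classes.

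*Bcl2a1b* was the gene called against the mean of the parents, in B cells, where it was high in NZB only. The 3 NZB mice had 115, 57.4, and 48.7 CPM. The NZW mice had 7.58, 15.2, and 15.5, and the NZBWF1 mice 9.13, 11.7, and 12.4. Every NZB mouse was above every other mouse, and the hybrids lay within the range of NZW. NZB exceeded NZW by 2.52 on the log2 scale (SE 0.321, edgeR adjusted p = 2.81e-05; 2.23% of genes called), and NZBWF1 was below NZB by a log2 fold change of -2.73 (SE 0.329, edgeR adjusted p = 5.23e-05, 0.427% called). Against NZW the hybrid's log2 fold change was -0.21 (SE 0.315, adjusted p = 0.995), and against the mean of the parents it was -1.47 (SE 0.273, edgeR adjusted p = 0.0192, 0.177% called).

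The copies summed gave the same calls in B cells, with log2 fold changes of 2.35 between the parents (edgeR adjusted p = 1.31e-05) and -1.37 against their mean (adjusted p = 0.00953). NZB marrow held few B cells, 165, 203, and 215 in its mice against 965 to 1146 in NZW, and its *Bcl2a1b* values rest on 38, 22, and 23 UMIs. The call against the mean of the parents was lost without NZW replicate 2 (-1.39, edgeR adjusted p = 0.0645), NZW replicate 3 (-1.39, 0.061), NZBWF1 replicate 1 (-1.35, 0.0628), NZBWF1 replicate 2 (-1.48, 0.0675), or NZBWF1 replicate 3 (-1.59, 0.134). With a minimum of 2000 UMIs and 1000 genes per cell all 3 calls in B cells were lost, at -0.78 against the mean of the parents (edgeR adjusted p = 0.926), 2.55 between the parents (0.227), and -2.06 for NZBWF1 against NZB (0.495). The call against the mean of the parents was also lost with at most 5% mitochondrial UMIs (-1.29, edgeR adjusted p = 0.909). DESeq2 gave -1.51 with no adjusted p (DESeq2 unadjusted p = 9.87e-07), so that no call could be read there.

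Mature B cells, which carry IgD and recirculate, held most of the *Bcl2a1b* of the lineage. Their levels were 319, 398, and 181 in NZB, 36.3, 61.2, and 70.3 in NZW, and 45.3, 84.4, and 66.0 in NZBWF1. NZB stood apart once more, and the other strains overlapped. The log2 fold change was 2.41 for NZB over NZW (edgeR adjusted p = 2.94e-09, 3.1% of genes called) and -2.26 for NZBWF1 against NZB (adjusted p = 1.98e-07, 3.04% called). Against the mean of the parents it was -1.05 (SE 0.261, edgeR adjusted p = 0.0297, 0.775% called). With the copies summed these were 2.18 (edgeR adjusted p = 7.04e-09), -1.96 (7.98e-07), and -0.87 (0.0452). Strain calls at single stages, here and below, were not refitted with a mouse left out or under stricter limits. The share of mature cells in the B-cell class was 27.4% for NZB, 25.3% for NZW, and 21.7% for NZBWF1.

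Markers of other cells were read in the same mature B cells. The 10 neutrophil markers, at 0 for 1 of 10 in NZB and 0 of 10 elsewhere, summed to 687 to 13174 CPM in NZB, 5593 to 21807 in NZW, and 6668 to 19059 in NZBWF1. The 7 monocyte markers summed to 452 to 590 in NZB, 407 to 478 in NZW, and 420 to 501 in NZBWF1, with 3 of 7 at 0 in NZB. Plasma cell markers moved with the strain: the 6 genes summed to 716 to 937 in NZB, 240 to 387 in NZW, and 343 to 452 in NZBWF1, and 3 of 6 were at 0 in NZB, 2 in NZBWF1, and 1 in NZW. The 6 T-cell markers moved the other way, at 102 to 159 in NZB, 193 to 214 in NZW, and 186 to 218 in NZBWF1, and 3 of 6 were at 0 in NZB, 2 in NZBWF1, and 1 in NZW. The 5 markers of nonclassical monocytes overlapped, at 553 to 981 in NZB, 688 to 762 in NZW, and 658 to 866 in NZBWF1, with 1 of 5 at 0 in NZB and in NZBWF1. The part of these markers in the *Bcl2a1b* difference was not tested. *Bcl2a1b* was at 4.64 in the plasma cell class itself.

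**Figure D3:**
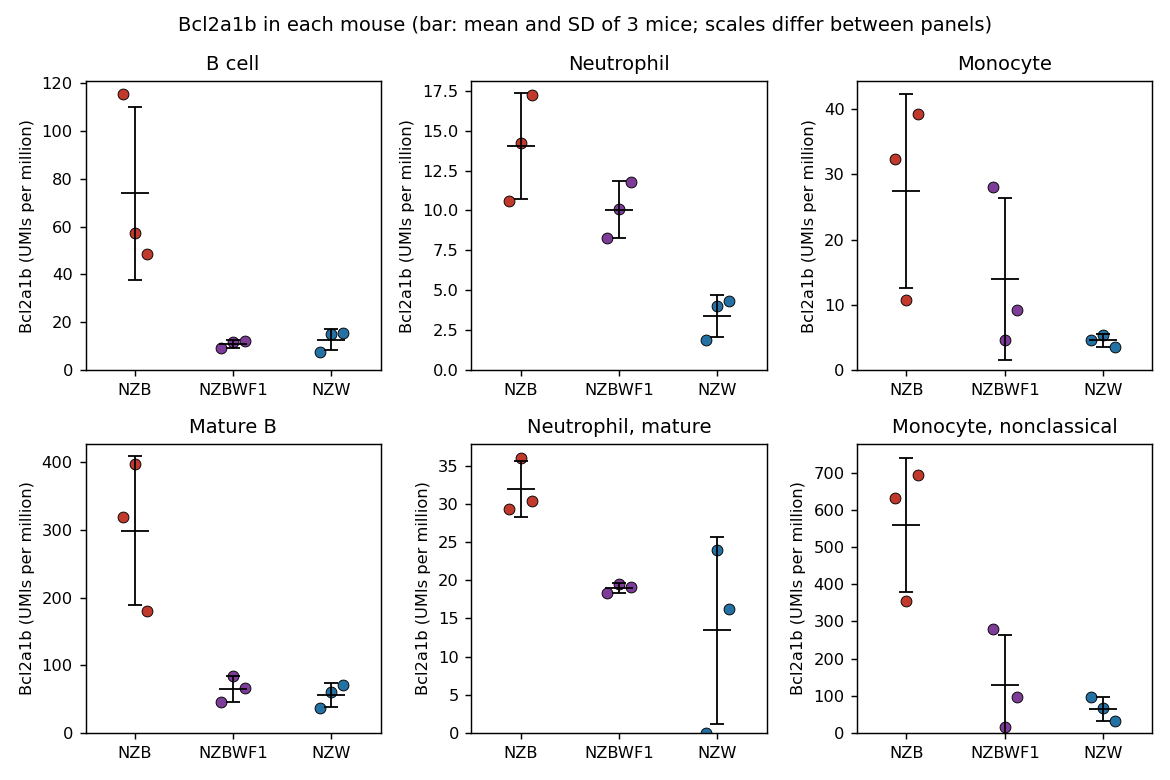
*Bcl2a1b* (y axis, CPM, from 0) in each mouse of the 3 strains (x axis) for 3 lineages (top row) and the mature or nonclassical stage of each (bottom row). Points are mice and bars the mean and SD of 3 mice. In B cells NZBWF1 lies with NZW, whereas in neutrophils, at 8.25 to 11.8, it lies above NZW and overlaps NZB.

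Neutrophils showed a different arrangement of the strains. *Bcl2a1b* was at 10.6, 14.2, and 17.2 in NZB, 1.91, 3.99, and 4.33 in NZW, and 8.25, 10.1, and 11.8 in NZBWF1. Both NZB and NZBWF1 were above NZW without overlap, and NZB and NZBWF1 overlapped each other. The log2 fold change was 2.23 for NZB over NZW (SE 0.28, edgeR adjusted p = 1.16e-05, 12.5% of genes called) and 1.59 for NZBWF1 over NZW (SE 0.298, adjusted p = 0.00773, 1.36% called). Against the mean of the parents it was 0.47 (SE 0.23, edgeR adjusted p = 0.585). The call over NZW was lost without NZW replicate 1 (1.31, edgeR adjusted p = 0.0524) or NZBWF1 replicate 3 (1.44, 0.0679), whereas the call between the parents held under every alternative that tested it. With 2000 UMIs and 1000 genes per cell, which left 2002 neutrophils and 82 UMIs of *Bcl2a1b*, the gene did not pass the filter and neither call was made. The difference between the parents was also called in dividing (2.33, edgeR adjusted p = 7.36e-05, 10.1% of genes called) and immature neutrophils (1.97, adjusted p = 0.000198, 13.3% called). The filter asked for 7.88 and 5.67 CPM in these stages, which no NZW mouse reached, so that the gene was tested through NZB and NZBWF1. The NZW mice held 2, 5, and 5 UMIs in dividing and 5, 5, and 7 in immature cells.

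The copies summed gave the same calls in neutrophils, with 2.02 between the parents (edgeR adjusted p = 1.89e-05), 1.41 for NZBWF1 over NZW (0.0111), and 0.40 against the mean of the parents (0.63). Between the parents they gave 1.93 in dividing (edgeR adjusted p = 0.00041) and 1.96 in immature cells (0.000177). Within the immature stage the 6 markers of mature neutrophils were also higher in NZB, at 5593 to 7355 against 3204 to 4778 in NZW, and their part was not tested.

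The difference between B cells and neutrophils in the position of the hybrid was itself tested. Relative to the mean of the parents, NZBWF1 was lower in B cells than in neutrophils by a log2 difference of -1.88 (SE 0.322, edgeR adjusted p = 0.000483), where 0.112% of genes were called, and by -1.71 with the copies summed (SE 0.30, adjusted p = 0.000816). The difference between the parents was not called as unlike in these classes, at 0.12 (SE 0.413, adjusted p = 0.954; 3.63% of genes called). With the copies summed it was 0.17 (SE 0.378, edgeR adjusted p = 0.906). Between B cells and monocytes it was -0.05 for *Bcl2a1b* (SE 0.599, edgeR adjusted p = 0.995; 3.04% called) and 0.75 for the copies summed (SE 0.849, adjusted p = 0.776), so that the direction turned and neither was called. Between B cells and monocytes, the difference in the position of the hybrid was -1.46 (SE 0.627, edgeR adjusted p = 0.559; 0.232% called), and -1.47 with the copies summed (SE 0.731, adjusted p = 0.67).

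Monocytes varied more from mouse to mouse. *Bcl2a1b* was at 32.3, 10.7, and 39.2 in NZB, 4.70, 5.44, and 3.53 in NZW, and 28.1, 4.59, and 9.25 in NZBWF1, so that the hybrids spanned both parents. NZB exceeded NZW by 2.45 (SE 0.727, edgeR adjusted p = 0.0458, 21.6% of genes called). With the copies summed this was 1.5 and not called (adjusted p = 0.24), and it was lost without 6 of the 9 mice in turn, with the highest adjusted p without NZW replicate 3 (2.28, edgeR adjusted p = 0.153) and the lowest without NZB replicate 3 (2.06, 0.075). The others were NZB replicate 1 (0.121), NZW replicate 1 (0.113), NZW replicate 2 (0.123), and NZBWF1 replicate 3 (0.0756). It was lost too with classes from clusters (1.84, edgeR adjusted p = 0.0998) and with total UMIs in place of TMM factors (2.44, 0.0548), and with 2000 UMIs and 1000 genes the gene did not pass the filter. With the limits used throughout, the filter asked for 7.12 CPM, which 3 NZB mice, 2 NZBWF1 mice, and no NZW mouse reached. Dividing cells made up 55.2% of the monocytes in NZB, 31.2% in NZW, and 28.4% in NZBWF1.

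Within monocytes, the nonclassical stage (patrolling cells, gated by at least 2 of 5 markers, *Treml4* and *Ace* among them) held the highest mean *Bcl2a1b* of any stage. Mature B cells were higher in NZB replicate 2, NZW replicate 3, and NZBWF1 replicate 2, and these stages were not tested against each other. Levels in nonclassical monocytes were 632, 355, and 695 in NZB, 97.0, 67.4, and 32.4 in NZW, and 279, 14.7, and 95.7 in NZBWF1. All NZB mice were above all other mice, and the hybrids enclosed NZW. The log2 fold change was 3.18 for NZB over NZW (SE 0.568, edgeR adjusted p = 0.00283; 1.65% of genes called) and 2.63 with the copies summed (adjusted p = 0.00938). NZBWF1 was below NZB by a log2 fold change of -2.38 (adjusted p = 0.0379, 0.930% called), a call that the summed copies did not give (-1.71, edgeR adjusted p = 0.278). These values rest on 12 to 51 cells and 1 to 24 UMIs per mouse. The level that the filter asked for in this stage was 194 CPM, which all 3 NZB mice, 1 NZBWF1 mouse, and no NZW mouse reached, so that the gene was tested through the strain in which it was high. Here the 10 neutrophil markers summed to 843 to 29096 in NZB, 1708 to 10256 in NZW, and 808 to 24808 in NZBWF1. The 8 B-cell markers summed to 38.6 to 355 in NZB, 54.0 to 539 in NZW, and 0 to 1547 in NZBWF1. The 8 macrophage markers overlapped too, at 116 to 178, 108 to 162, and 112 to 390. The part of these markers was not tested.

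In T cells, where *Bcl2a1b* was highest, the strains overlapped. The mice had 176, 136, and 79.1 in NZB, 27.8, 58.5, and 82.7 in NZW, and 45.9, 104, and 110 in NZBWF1. NZB over NZW was 1.12 and not called (SE 0.47, edgeR adjusted p = 0.375). It was likewise not called in macrophages (0.82, adjusted p = 0.686) or granulocyte-monocyte precursors (1.46, adjusted p = 0.0777). With the copies summed the values were 0.98 in T cells (edgeR adjusted p = 0.35), 0.52 in macrophages (0.797), and 0.90 in these precursors (0.171). *Bcl2a1a* was tested in B cells and monocytes, with log2 fold changes of NZB over NZW of 1.81 (adjusted p = 0.25) and 0.20 (adjusted p = 0.874).

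*Bcl2*, the founding guardian of the family (chromosome 1, 106538178 to 106714274, reverse strand), was higher in NZB B cells as well. It was at 115, 91.4, and 93.1 in NZB, 44.3, 36.1, and 40.3 in NZW, and 56.6, 30.4, and 27.6 in NZBWF1. NZB did not overlap the other strains, and the hybrids enclosed NZW. Plasma cell markers moved with it in the B-cell class, where the 6 genes summed to 632 to 729 in NZB, 553 to 608 in NZW, and 575 to 611 in NZBWF1, with 1 of 6 at 0 in NZB and in NZBWF1, and their part was not tested for *Bcl2* or *Bcl2a1b*. The log2 fold change was 1.33 for NZB over NZW (SE 0.232, edgeR adjusted p = 0.0013; 2.23% of genes called) and -1.51 for NZBWF1 against NZB (SE 0.237, adjusted p = 0.00118). Against the mean of the parents, -0.85 missed the threshold (adjusted p = 0.0588). Stricter gates took both calls away, with 0.75 (edgeR adjusted p = 0.178) and -0.91 (adjusted p = 0.16), as did a limit of 5% mitochondrial UMIs, with 0.75 (0.611) and -1.35 (0.388).

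The pattern of *Bcl2* was seen at separate stages of the lineage. Mature B cells had 261, 398, and 350 in NZB, 159, 145, and 144 in NZW, and 207, 169, and 119 in NZBWF1, with 1.15 for NZB over NZW (edgeR adjusted p = 0.000778) and -1.09 for NZBWF1 against NZB (adjusted p = 0.00264). Large pre-B cells, which divide once they carry the pre-B receptor, had 68.7, 34.6, and 37.6 in NZB, 8.62, 8.52, and 19.0 in NZW, and 9.84, 13.2, and 7.96 in NZBWF1. Here NZB over NZW was 1.88 (edgeR adjusted p = 0.00354, 1.78% of genes called) and NZBWF1 against NZB -2.14 (adjusted p = 0.00333, 0.352% called). Markers of mature B cells moved with it in this stage: the 5 genes summed to 246 to 618 in NZB, 81.9 to 338 in NZW, and 89.8 to 163 in NZBWF1, with 1 of 5 at 0 in NZB. Their part was not tested.

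Outside the B-cell stages *Bcl2* was called in plasma cells and plasmacytoid dendritic cells, in opposite directions. In plasma cells the mice had 96.8, 79.8, and 87.7 in NZB, 45.6, 26.8, and 37.7 in NZW, and 54.7, 53.7, and 33.5 in NZBWF1, and NZB over NZW was 2.05 (SE 0.365, edgeR adjusted p = 0.000547; 24.7% of genes called). Scaled by total UMIs in place of TMM factors, it was 1.17 (edgeR adjusted p = 0.0423). Immunoglobulin RNA fills much of a plasma cell, and the scaling moved the median of all genes here by -0.93. Stricter gates gave 1.06 (adjusted p = 0.313), classes from clusters 0.75 (edgeR adjusted p = 0.588), and 5% mitochondrial UMIs 1.80 (0.0544), and the 8 B-cell markers in this class summed to 503 to 684 in NZB and 1718 to 4256 in NZW. The NZW levels of *Bcl2* in plasma cells rest on 3, 3, and 6 UMIs. The filter asked for 49.7 CPM there, which 3 NZB mice, 2 NZBWF1 mice, and no NZW mouse reached. Plasmacytoid dendritic cells, the main producers of type I interferon, had 48.9, 52.9, and 56.9 in NZB, 124, 97.2, and 119 in NZW, and 61.5, 47.8, and 74.8 in NZBWF1. NZB was below NZW by a log2 fold change of -1.06 (SE 0.237, edgeR adjusted p = 0.00184; 6.94% of genes called). That call was lost with classes from clusters (-0.78, adjusted p = 0.125), with 5% mitochondrial UMIs (-1.17, 0.149), and with 2000 UMIs and 1000 genes (-0.74, 0.45), and B-cell markers in the class summed to 127 to 180 in NZB and 339 to 606 in NZW, whose part was not tested.

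*Bcl2* was not called in T cells (0.37, edgeR adjusted p = 0.666) or NK cells (-0.36, adjusted p = 0.608), its highest classes, where the levels of the strains overlapped at 340 to 651 and 325 to 581.

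*Mcl1* (chromosome 3, 95658788 to 95663176, forward strand), the guardian on which neutrophils and plasma cells depend, was higher in NZB neutrophils. The levels were 256, 224, and 245 in NZB, 200, 137, and 164 in NZW, and 202, 180, and 194 in NZBWF1. NZB lay above both other strains, while NZBWF1 and NZW overlapped. The log2 fold change of NZB over NZW was 0.71 (SE 0.141, edgeR adjusted p = 0.00187), a call held under every alternative tried. NZBWF1 against NZB was -0.53 (SE 0.14, edgeR adjusted p = 0.0382; 4.0% called), which was lost without any 1 of 6 mice, namely NZB replicate 1 (-0.45, adjusted p = 0.116) or 3 (-0.55, 0.0893), NZW replicate 3 (-0.52, 0.0714), and NZBWF1 replicate 1 (-0.54, 0.062), 2 (-0.49, 0.133), or 3 (-0.54, 0.108). It was also lost with 2000 UMIs and 1000 genes (-0.18, edgeR adjusted p = 0.552) and with total UMIs in place of TMM factors (-0.33, 0.128).

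The same direction was called at each neutrophil stage. Mature neutrophils had 772, 865, and 766 in NZB, 532, 432, and 504 in NZW, and 397, 558, and 454 in NZBWF1. NZB over NZW was 0.77 (edgeR adjusted p = 0.00708, 6.54% of genes called) and NZBWF1 against NZB -0.85 (adjusted p = 0.00385, 2.5% called). In immature cells the values were 0.62 and -0.56 (edgeR adjusted p = 0.000417 and 0.00331, with 6.67% of genes called in the second comparison), and in dividing cells NZB over NZW was 0.46 (adjusted p = 0.0149). The 6 markers of mature neutrophils moved with it in the immature stage, where they summed to 5593 to 7355 in NZB, 3204 to 4778 in NZW, and 3599.9 to 6311 in NZBWF1, with 0 of 6 at 0. Their part was not tested.

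In dividing monocytes *Mcl1* was higher in NZB than in NZW by 0.59 (edgeR adjusted p = 0.000457, 12.6% of genes called), and lower in NZBWF1 than in NZB by a log2 fold change of -0.53 (adjusted p = 0.00591, 5.57% called). Classical monocytes, which do not divide, gave 0.00 (SE 0.13, adjusted p = 0.986), and all monocytes 0.17 (adjusted p = 0.221). In plasma cells *Mcl1* was called with TMM factors, at 1.0 for NZB over NZW (edgeR adjusted p = 0.00969) and 0.84 for NZBWF1 over NZW (adjusted p = 0.032, 17.4% of genes called). Scaled by total UMIs these were 0.10 (edgeR adjusted p = 0.82) and -0.064 (adjusted p = 0.879), so that the direction of the second turned. Both were also lost with strict gates (0.35 and 0.30, edgeR adjusted p = 0.602 and 0.728), classes from clusters (0.098 and 0.056, 0.952 and 0.996), 5% mitochondrial UMIs (0.62 and 0.59, 0.224 and 0.247), and 2000 UMIs and 1000 genes (0.88 and 0.81, 0.0628 and 0.0769). The levels themselves overlapped, at 252, 266, and 229 in NZB, 182, 241, and 214 in NZW, and 214, 252, and 197 in NZBWF1. The second call was also lost without NZW replicate 1 (0.59, edgeR adjusted p = 0.125), NZW replicate 2 (0.91, 0.0525), NZBWF1 replicate 2 (0.88, 0.0723), or NZBWF1 replicate 3 (0.86, 0.106).

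*Bcl2l1* (chromosome 2, 152780668 to 152831728, reverse strand), which protects erythroid cells and immature lymphocytes, was not called between strains in any of its 5 classes. In B cells it was at 39.5, 75.7, and 61.3 in NZB, 57.6, 48.8, and 62.4 in NZW, and 66.9, 61.4, and 72.1 in NZBWF1. These ranges overlapped, and NZB over NZW was 0.12 (SE 0.21, edgeR adjusted p = 0.895).

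**Figure D4:**
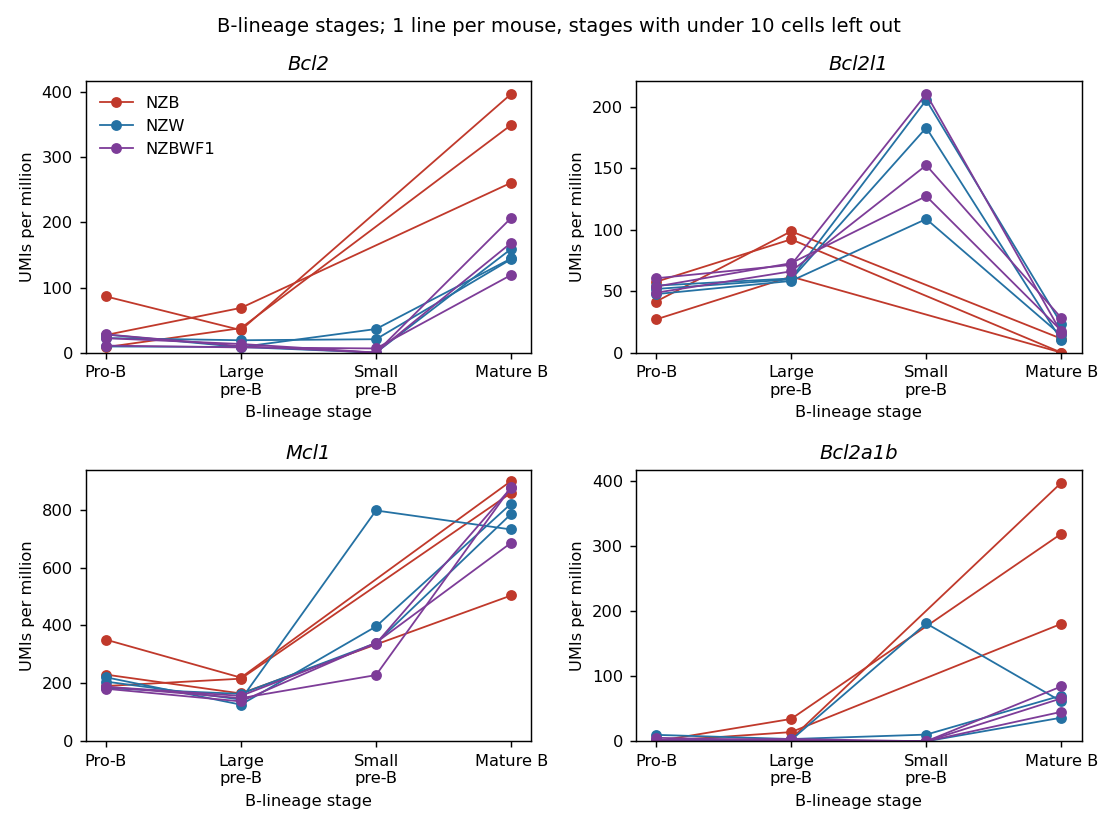
Level (y axis, CPM, from 0) of *Bcl2*, *Bcl2l1*, *Mcl1*, and *Bcl2a1b* along 4 stages of the B-cell lineage (x axis), with 1 line per mouse in the color of its strain. Stages with fewer than 10 cells of a mouse, which include small pre-B cells in NZB, are left out, and the line joins the stages on either side. *Bcl2l1* peaks in small pre-B cells and *Bcl2*, *Mcl1*, and *Bcl2a1b* are highest in mature B cells in most mice.

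Stages of a lineage were compared within mice, with the mouse as a block, in the mice that held at least 10 cells of both. Of 23 tests of the 10 genes in 5 pairs of stages, 14 were called, where 9.09% to 50.3% of all genes were called depending on the pair. Different guardians were high at different stages of the B-cell lineage. From large to small pre-B cells (6 mice, none of them NZB), *Mcl1* rose from 146 to 407 (log2 fold change 1.12, SE 0.162) and *Bcl2l1* from 64.8 to 165 (1.14, SE 0.212), both in 6 of 6 mice (edgeR adjusted p = 9.35e-11 and 7.84e-07; 39.5% of genes called). From small pre-B to mature B cells, *Bcl2l1* fell from 165 to 18.2 (-3.06, SE 0.297, edgeR adjusted p = 1.82e-14), lower in all 6 mice (26.1% of genes called). *Bcl2* rose from 10.5 to 157 in 6 of 6 mice (4.41, SE 0.412, edgeR adjusted p = 3.51e-15). The size of this rise is uncertain, since small pre-B cells held 4 UMIs of *Bcl2* in all, with 3 of 6 mice at 0, against 321 in mature cells. The ratio of the summed levels was 20.6, with an exact 95% interval of 7.96 to 76.0 that covers counting error only. *Mcl1* rose again, from 407 to 796 (1.27, adjusted p = 2.43e-12), in 5 of 6 mice.

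*Bcl2a1b* was higher in mature B cells than in small pre-B cells by 2.42 (SE 0.659, edgeR adjusted p = 0.00749), in 5 of 6 mice. The mouse that differed, NZW replicate 2, had 181 CPM in small pre-B cells, from 5 of the 6 UMIs that this stage held, and 4 of 6 mice were at 0. Without NZW replicate 3 the call was lost (2.29, edgeR adjusted p = 0.0561). *Bax* and *Bcl2l11* were not called from large to small pre-B cells (-0.33 and 0.20).

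In the myeloid lineages *Mcl1* and *Bcl2a1b* were higher in the later stage. *Mcl1* was higher in mature than in immature neutrophils in 9 of 9 mice, at 587 against 202 (1.21, SE 0.0794, edgeR adjusted p = 2.45e-50; 38.7% of genes called), and *Bcl2a1b* in 8 of 9, at 21.4 against 7.73 (1.07, adjusted p = 0.0157). Nonclassical monocytes exceeded classical monocytes in *Bcl2a1b* in 9 of 9 mice, at 252 against 6.01 (4.78, SE 0.439, edgeR adjusted p = 7.58e-16; 9.09% of genes called). *Bcl2* was higher there too, at 63.5 against 20.6, in 8 of 9 mice (1.73, edgeR adjusted p = 0.00417). *Mcl1* was higher by 0.37 (adjusted p = 0.0356), which was lost without NZB replicate 1 (0.35, edgeR adjusted p = 0.0855), NZB replicate 3 (0.30, 0.143), or any 1 of the NZBWF1 mice (0.30, 0.38, and 0.39 without replicates 1, 2, and 3, with adjusted p of 0.173, 0.067, and 0.0588), with strict gates (0.35, 0.166), or with no filter beyond 1 count (0.11, 0.827). In erythroid cells that fill with hemoglobin, *Bcl2l1* exceeded its level in early erythroid cells, at 12.8 against 5.99, in 5 of 6 mice (1.46, edgeR adjusted p = 0.00441; 50.3% of genes called). Without NZW replicate 2 (1.32, adjusted p = 0.0657) or NZW replicate 3 (1.05, 0.125) this was lost. *Bax* fell from 197 to 120 in 6 of 6 mice (-0.42, SE 0.121, edgeR adjusted p = 0.00223).

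The BH3-only genes were mostly not called. *Bcl2l11* (chromosome 2, 128126038 to 128162547, forward strand), whose protein BIM deletes self-reactive lymphocytes, was called between the parents in erythroid cells. It was at 48.5, 47.1, and 35.9 in NZB, 25.2, 30.2, and 32.7 in NZW, and 55.7, 51.0, and 32.6 in NZBWF1. NZB was above NZW in each mouse, and NZBWF1 overlapped both. The log2 fold change was 0.55 (SE 0.172, edgeR adjusted p = 0.045; 8.86% of genes called). It was lost without NZB replicate 1 (0.48, edgeR adjusted p = 0.148), NZB replicate 2 (0.46, 0.245), NZW replicate 1 (0.49, 0.141), NZW replicate 2 (0.55, 0.147), NZW replicate 3 (0.62, 0.082), or NZBWF1 replicate 2 (0.54, 0.0533). DESeq2 (0.56, adjusted p = 0.127), 5% mitochondrial UMIs (0.78, 0.201), no removal of doublets (0.53, 0.0662), classes from clusters (0.54, 0.0505), and total UMIs (0.53, 0.0698) did not give it either. The share of erythroid cells filling with hemoglobin was 8.42% for NZB, 20.4% for NZW, and 8.88% for NZBWF1. Among early erythroid cells alone the value was 0.54 (edgeR adjusted p = 0.0573).

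*Bbc3* (chromosome 7, 16308393 to 16318205, forward strand), the p53 target PUMA, was not called in its 3 classes, with NZB over NZW of 0.65 in neutrophils (edgeR adjusted p = 0.225), -0.19 in monocytes (0.726), and 0.89 in erythroid cells (0.172). It was also found in megakaryocyte-like cells, of which there were 94, too few per mouse to be tested. They held 183 UMIs of *Bbc3*, or 288 CPM, against 6.49 in all other classes together. These UMIs came from 24 cells, a single cell held 50 of them and another 40, and the 3 NZW mice had 0. Without NZB replicate 2 the value was 174, and without any other single mouse it was 242 to 340.

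*Bax* (chromosome 7, 45461697 to 45466898, reverse strand), the effector, differed between the parents in opposite directions in the 2 main myeloid classes. In neutrophils it was at 15.9, 18.6, and 16.9 in NZB, 28.4, 33.6, and 27.7 in NZW, and 22.0, 31.8, and 29.9 in NZBWF1. NZB lay below every other mouse, with a log2 fold change against NZW of -0.61 (SE 0.174, edgeR adjusted p = 0.0248). The 8 B-cell markers in the neutrophil class summed to 29.0 to 67.9 in NZB, 53.7 to 194 in NZW, and 124 to 201 in NZBWF1, with 0 of 8 at 0, and *Bax* was at 136 in B cells themselves. The part of these markers was not tested. In monocytes it was at 225, 205, and 226 in NZB, 177, 177, and 160 in NZW, and 212, 180, and 209 in NZBWF1. Here NZB was above NZW without overlap, by 0.36 (SE 0.106, edgeR adjusted p = 0.0136; 21.6% of genes called). The difference between these classes was not tested. The neutrophil call was lost without NZB replicate 1 (-0.60, edgeR adjusted p = 0.0618), NZB replicate 3 (-0.57, 0.0981), NZW replicate 1 (-0.61, 0.0523), or NZW replicate 2 (-0.54, 0.0938), and the monocyte call without NZW replicate 3 (0.31, 0.0802). The neutrophil call was also lost with DESeq2 (-0.60, adjusted p = 0.0716), without removal of doublets (-0.53, edgeR adjusted p = 0.0551), and with strict gates (-0.64, 0.0636).

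Of the stages of both lineages, only the dividing ones were called for *Bax*. Among dividing neutrophils NZB against NZW was -0.80 (edgeR adjusted p = 0.014) and NZBWF1 against NZB 0.80 (adjusted p = 0.0353, 4.24% of genes called). In dividing monocytes NZB over NZW was 0.46 (edgeR adjusted p = 0.0131).

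**Figure D5:**
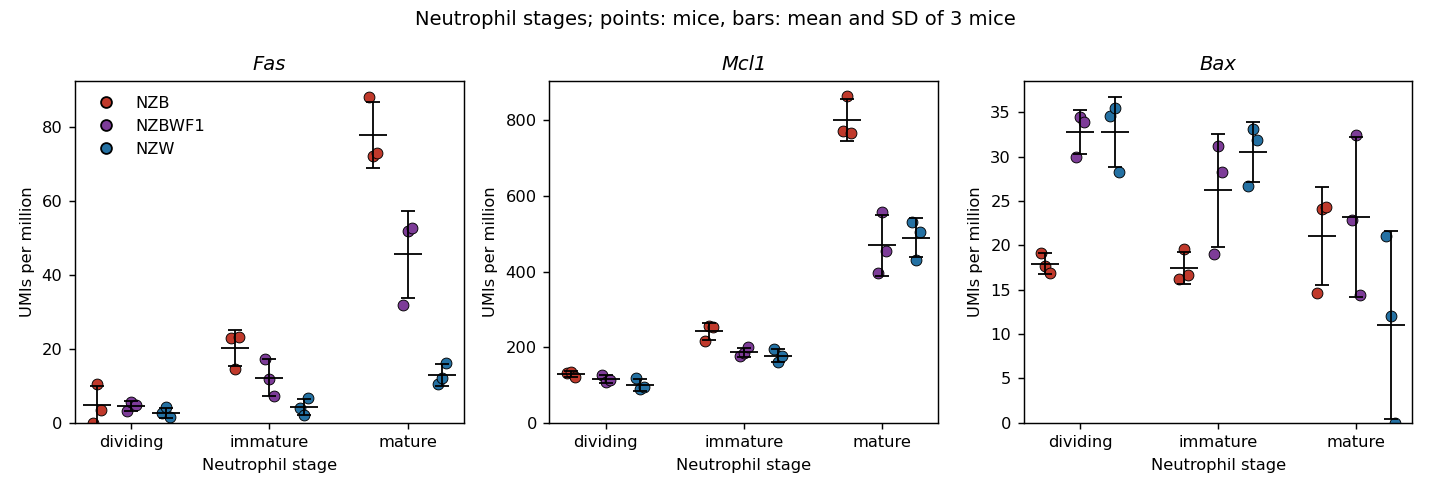
*Fas*, *Mcl1*, and *Bax* (y axis, CPM, from 0) in 3 stages of neutrophils (x axis), with a point per mouse and a bar for the mean and SD of 3 mice. *Fas* and *Mcl1* are highest in mature neutrophils, where *Fas* is at 72.1 to 88.0 in NZB and 10.5 to 16.3 in NZW.

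*Fas* (chromosome 19, 34290666 to 34327772, forward strand) ordered the strains in neutrophils without overlap. It was at 22.4, 15, and 19.4 in NZB, 14.7, 12.4, and 10.6 in NZBWF1, and 4.63, 3.66, and 6.35 in NZW. The hybrid lay between its parents. NZB exceeded NZW by 2.09 (SE 0.246, edgeR adjusted p = 5.75e-06), a call held under every alternative that tested it. NZBWF1 exceeded NZW by 1.31 (SE 0.264, edgeR adjusted p = 0.0128; 1.36% of genes called) and was below NZB by a log2 fold change of -0.78 (SE 0.215, adjusted p = 0.0451). Against the mean of the parents it was 0.26 (adjusted p = 0.742).

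With 2000 UMIs and 1000 genes per cell, which left 55 UMIs of *Fas* in neutrophils, the gene did not pass the filter and none of the 3 calls was made. The calls of *Fas* in the hybrid depended on single mice. NZBWF1 over NZW was lost without NZW replicate 1 (1.30, edgeR adjusted p = 0.0548) or NZW replicate 2 (1.15, 0.0751). NZBWF1 against NZB was lost without NZB replicate 1 (-0.62, edgeR adjusted p = 0.142) or 3 (-0.79, 0.113), NZW replicate 1 (-0.79, 0.052) or 3 (-0.78, 0.063), or NZBWF1 replicate 2 (-0.79, 0.108) or 3 (-0.67, 0.175). Total UMIs in place of TMM factors, which moved the median of all genes by 0.19 here, gave -0.59 (adjusted p = 0.11), strict gates gave -0.64 (0.139), and DESeq2 gave -0.80 (0.106).

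*Fas* rose with neutrophil maturation in 9 of 9 mice, from 12.2 in immature to 45.4 in mature cells (1.58, SE 0.255, edgeR adjusted p = 6.86e-09). Mature neutrophils had 88.0, 72.1, and 73.0 in NZB, 10.5, 12.0, and 16.3 in NZW, and 32.0, 51.9, and 52.6 in NZBWF1. The strains were again apart, with NZB over NZW at 2.64 (SE 0.604, edgeR adjusted p = 0.0053; 6.54% of genes called). These levels rest on 18, 6, and 12 UMIs in NZB, 2, 1, and 2 in NZW, and 7, 8, and 11 in NZBWF1. The filter asked for 60.8 CPM in this stage, which the 3 NZB mice reached and no other mouse did, so that *Fas* was tested through NZB alone. In immature cells it was 2.37 (adjusted p = 9.99e-06), a stage in which the mature markers given for *Bcl2a1b* moved with the strain as well, and their part was not tested. Mature cells made up 7.11% of neutrophils in NZB, 5.57% in NZW, and 9.65% in NZBWF1. *Fas* in monocytes was not called, with NZB over NZW at 0.72 (edgeR adjusted p = 0.055), nor was it in B cells (0.43, adjusted p = 0.89).

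Other genes of the pathway came from 5 lists. Between the parents, 6 of 50 tests of p53 and its targets were called, 5 higher in NZB. Of caspases, the apoptosome, and their inhibitors 13 of 104 were called, 7 higher and 6 lower, and of other BCL2 family genes 11 of 67, 4 higher and 7 lower. Regulators of the 10 genes (NF-kappaB, FOXO, and ubiquitin ligases) gave 6 of 91, 2 higher and 4 lower, and death receptors and adaptors 0 of 45. The median log2 fold changes of these lists ran from -0.00 to 0.20, and 9.17% of all tests were called.

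*Cdkn1a*, the p53 target that stops the cell cycle, was called in 4 classes between NZB and NZW, more than any other gene of the lists in that comparison. It was higher in NZB than in NZW in monocytes (2.12), granulocyte-monocyte precursors (1.87), neutrophils (1.17), and B cells (0.91, edgeR adjusted p = 0.0182). The mitophagy receptor *Bnip3* was lower in NZB in neutrophils (-2.44), monocytes (-1.67), and granulocyte-monocyte precursors (-1.35), and its relative *Bnip3l* in monocytes (-0.52), granulocyte-monocyte precursors (-0.47), and erythroid cells (-0.39). *Htra2*, a mitochondrial protease, was lower in neutrophils (-0.65), monocytes (-0.55), and granulocyte-monocyte precursors (-0.42). *Birc5* (survivin), which is made in dividing cells, was higher in NZB monocytes (0.50) and granulocyte-monocyte precursors (0.33), and lower in plasma cells (-1.94). In that class it was at 17.4 in NZB and 157 in NZW, the B-cell markers given for *Bcl2* were also lower in NZB, and total UMIs in place of TMM factors moved the median of all genes by -0.93. The part of these in the value was not tested. Of all list genes it was the only one called against the mean of the parents, in monocytes (-0.53, SE 0.0974, edgeR adjusted p = 0.00216), where NZBWF1 was at 279 against 460 in NZB and 332 in NZW. Dividing cells, at 55.2% of NZB monocytes, 31.2% of those of NZW, and 28.4% of those of NZBWF1, moved with it in NZB, and their part was not tested.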

How the data were processed

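Single-cell RNA libraries of bone marrow from 9 mice were sequenced, and the authors deposited UMI counts per gene and barcode, made with Cell Ranger 3.1.0 and bcl2fastq 2.20 on mm10 according to the submitters' processing notes. Deposited counts are whole numbers, and no source used here says whether reads were thinned when the libraries were merged. Cell Ranger keeps reads that map to 1 gene. Each barcode's number gives its library, in the order of the authors' aggregation list with sample titles as names, and 0 columns of values were left unused.

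Cells were kept with at least 1000 UMIs, 500 genes, and at most 10% mitochondrial UMIs. Likely doublets were removed per mouse by Scrublet score, at an expected rate of 0.8% per 1000 cells. Cells were gated by mean marker scores, which matched the names of Leiden clusters (scanpy 1.11.5, resolution 2) in 95.3% of the cells that were both gated and in 1 of the 38 named clusters (of 41). Counts were summed per class and mouse with at least 10 cells. They were tested over all genes in edgeR 4.0.16 (R 4.3.3) with TMM scaling, its expression filter, robust quasi-likelihood fits, and Benjamini-Hochberg adjustment within class and comparison. A call is an adjusted p under 0.05. The mean of the parents is the mean of their logs. Orders of levels were tested on log2 values with a pseudocount of 1 by exact two-sided permutation. The fits were tested on simulated data.

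Alternatives were DESeq2 1.42.0, another scaling, no filter, stricter limits and gates, classes from clusters, subtraction of free RNA, no doublet removal, the copies summed, an arithmetic mean of the parents, leaving out each mouse, and a replicate block. Total UMIs in place of TMM, and all alternatives for the order of levels, were chosen after seeing the data. The members and gene lists were chosen with earlier results of these data known. All 10 members are described, with list genes called against the mean of the parents, the 5 list genes called in most classes between the parents, and the 3 genes most like each of 4 members. RefSeq gave the promoters, and 30934 of 31053 gene IDs matched GENCODE vM21.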

Additional observations from a re-analysis of the deposited data

Results flagged for a closer look

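*Bcl2a1b* differed between B cells and neutrophils in where the hybrid lay relative to its parents, by a log2 difference of -1.88 in a test of the difference itself (edgeR adjusted p = 0.000483), and the 3 copies summed gave -1.71 (adjusted p = 0.000816).

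*Bbc3* stood out in megakaryocyte-like cells, which are outside the tested comparisons. Their 94 cells held 183 UMIs, or 288 CPM against 6.49 in all other classes together and 5.22 to 12.7 in the free RNA of the libraries. These UMIs came from 24 cells. NZB mice had 124, 817, and 169 CPM, NZBWF1 mice 0, 36.5, and 426, and the NZW mice, with 6, 9, and 11 such cells, 0 each. Without NZB replicate 2, an alternative chosen after seeing the data, the value was 174. In NZB replicate 2 a single cell held 50 UMIs, and in NZBWF1 replicate 3 a single cell held 40. Cells with *Bbc3* had a median of 6435 UMIs and *Pf4* at 18328 CPM, and those without it 4784.5 UMIs and *Pf4* at 8949.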

How the results depend on the processing

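Of 573 values of called genes recomputed under the alternatives, 482 kept their direction and their call, 90 lost the call (40 of these when a setting other than the mice was changed), and 1 reversed, and the cause was not tested unless stated. *Mcl1* in plasma cells, NZBWF1 over NZW, was -0.064 with total UMIs in place of TMM. Strain calls at single stages of a lineage are not among the 573 values. They were not refitted with a mouse left out or under stricter limits and gates. Each alternative counted the tests of members that passed its own filter, so that the counts below are not all out of 59. Over all genes there were 176335 tests with no filter beyond 1 count, against 65672 as reported. Against the mean of the parents, 1 of 59 tests of members was called as reported. This number was 0 with DESeq2 (*Bcl2a1b* in B cells was -1.51 there, with no adjusted p given) and 0 with 2000 UMIs and 1000 genes. It was also 0 with at most 5% mitochondrial UMIs, and 2 with no filter beyond 1 count. It ranged from 0 to 1 when 1 mouse was left out. NZBWF1 against NZB, 4 as reported, gave 1 with 2000 UMIs and 1000 genes and 2 with strict gates, and 2 to 5 without 1 mouse (2 without NZB replicate 1 or 3, NZW replicate 3, or NZBWF1 replicate 2 or 3). Over all genes, 2313 of 65672 tests were called there as reported. This was 1142 of 49839 with 2000 UMIs and 1000 genes, and 2047 of 58285 with strict gates. NZBWF1 against NZW, 3 as reported, gave 0 with 2000 UMIs and 1000 genes, and 0 to 3 without 1 mouse (0 without NZW replicate 1, 1 without NZW replicate 2). Over all genes, 1023 of 65672 tests were called as reported and 809 of 49839 with 2000 UMIs and 1000 genes. Without NZW replicate 1 and without NZW replicate 2 these were 658 of 69886 and 841 of 68126. NZB against NZW, 12 as reported (6022 of 65672 tests over all genes), gave 7 with at most 5% mitochondrial UMIs (4514 of 42378) and 9 to 13 without 1 mouse. This comparison also lost calls with 2000 UMIs and 1000 genes, beside those that missed the filter. They were *Bcl2a1b* in B cells, *Bcl2* in plasmacytoid dendritic cells, and *Mcl1* in plasma cells. Stage pairs, 14 as reported, gave 13 to 15. They were not refitted with DESeq2, classes from clusters, 5% mitochondrial UMIs, or 2000 UMIs and 1000 genes. With 2000 UMIs and 1000 genes, 6 of the 20 calls over classes gave no value, since *Bcl2a1b* in neutrophils and monocytes and *Fas* in neutrophils missed the filter. The 6 calls of *Bcl2a1b* are outside these 573 values when the copies were summed, and 5 of them were called with the sum, the one in monocytes not. The 14 values counted under that setting are of other genes, whose own counts the sum leaves unchanged. They are among the 482 that kept their call but do not test it.

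The difference in the position of the hybrid between B cells and neutrophils ranged from -2.07 to -1.63 without 1 mouse, and between B cells and monocytes from -1.96 to -0.68. The corresponding differences between the parents, which were not called, changed sign: for neutrophils they ranged from -0.40 (without NZB replicate 1) to 0.50, and for monocytes from -0.37 to 0.61 (without NZB replicate 3), with 0.28 without NZW replicate 3 and 0.10 with strict gates.

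With the mouse number as a replicate block, 2 tests were called against the mean of the parents and 7 between NZBWF1 and NZB. Calls over all genes rose as well, to 550 and 2986 of 69572 tests, from 357 and 2313 of 65672 as reported. The labels do not say that a number marks a shared batch, and not every correlation of same-numbered mice was over 0.1, so the mice were not taken as paired. These correlations were -0.02 to 0.17 in B cells (mean 0.09, against -0.04 for unlike numbers), -0.01 to 0.26 in neutrophils (mean 0.16, against -0.08), -0.05 to 0.03 in monocytes, and -0.11 to 0.14 in erythroid cells. They were taken on deviations from the mean of each strain, so that the mean for unlike numbers largely follows from that for same numbers. Of 9 mice, 5, 7, 1, and 3 correlated best with their own number in these classes, a hint from the data and not from the design. Depth limits *Bcl2a1a* and *Bcl2a1d* most, with 195 and 63 UMIs in all.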

Other observations

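*Bcl2l1* was also high in the megakaryocyte-like cells, in which BCL-XL is known to sustain platelets. The values were 149, 231, and 67.5 CPM in NZB, 121, 89.3, and 38.5 in NZW, and 0, 45.6, and 82.6 in NZBWF1, and the mean over the 4 mice with at least 10 such cells was 99.4. The strains overlapped, and the cells were too few to be tested.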
